A study of Mus musculus with 24 samples.

Results

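The clustered histone genes of the mouse are the protein-coding genes whose symbols begin with Hist1h, Hist2h, Hist3h or Hist4h. All 67 of them were taken from a table of 24537 genes, of which 20712 were protein-coding, and 2 further rows with such symbols were pseudogenes and were left out. By the class of histone that they encode there were 6 linker histone H1 genes, 18 H2A genes, 18 H2B genes, 12 H3 genes and 13 H4 genes. In the mm10 assembly 54 lay in the Hist1 cluster on chromosome 13, 10 in the Hist2 cluster on chromosome 3, 2 in the Hist3 cluster on chromosome 11 and 1 (Hist4h4) on chromosome 6.

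Core histones H2A, H2B, H3 and H4 form the protein spool of the nucleosome, and linker histone H1 binds where DNA enters and leaves that spool. Most clustered histone genes are transcribed during DNA replication, and their messages end in a conserved stem-loop in place of a poly(A) tail, which cycling cells use to start and stop histone supply. Some of the genes can also give polyadenylated messages, which are the form known from cells that have stopped dividing, such as the nuclei of muscle fibres.

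The study asked what the reprogramming factors Oct4, Sox2, Klf4 and Myc (OSKM) do when they are switched on in muscle fibres only. Whole extensor digitorum longus (EDL, a fast muscle) and soleus (SOL, a slow muscle) were taken from Acta1-Cre+/4Fhet mice (Cre+) and from Acta1-Cre-/4Fhet control mice (Cre-) at an age of 2 months, once they had drunk water with doxycycline (Dox) at 1 mg/ml for 2.5 d, for 5.5 d or for 8.5 d. Both genotypes carried 1 copy of the Col1a1-tetO-4F cassette that encodes OSKM together with the ROSA26 LoxP-STOP-LoxP rtTA allele, and both received Dox. By design the genotypes thus differed in Cre, which the Acta1 promoter drives in skeletal muscle fibres. The study used mice of both sexes, and sex was not modelled here. Each of the 12 combinations of muscle, genotype and day had 2 libraries, 24 in all, and the tissue was whole muscle, in which fewer cells of a type and less RNA per cell cannot be told apart. The labels call the libraries replicates and give no mouse for each, so p-values measure only the spread between these samples. The study describes 2.5 and 8.5 d alone. It dropped as outliers those samples that lacked OSKM overexpression, and does not name them. The 5.5 d samples were fitted apart here and are given after the others.

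Library totals ranged from 36088781 to 54679082 counts with a median of 44243960, and no pair of libraries agreed within sampling noise (mean chi-square per gene 24.98 to 138.8 over the 12 pairs). Counts of Pou5f1, which encodes Oct4, matched the labels: at 2.5 d EDL gave 1129 and 4206 counts with Cre and 4 and 1 without, and SOL gave 313 and 531 counts with Cre and 1 and 2 without. The 2 EDL Cre+ libraries of 2.5 d thus differed in OSKM level, with summed FPKM of the 4 factors at 74.5 and 261. All 4 factors passed the edgeR test in EDL at 2.5 and 8.5 d, and Pou5f1 and Sox2 did in SOL. Myc in SOL had log2 fold changes of 2.18 and 2.37 and missed the threshold (edgeR, adjusted p = 0.0971 and 0.056). DESeq2 called 3 of the 4 factors higher in SOL at each day. The study reported Oct4, Sox2 and c-Myc as induced in SOL. The 9 fast-fibre markers summed to 96000 to 112000 FPKM in EDL Cre- libraries and 26500 to 46400 in SOL Cre- libraries, and the 7 slow-fibre markers to 160.0 to 1520 and 30600 to 43000, so the muscles matched their labels.

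Few clustered histone genes were read in these poly(A)-selected libraries. Of the 67 genes 40 never rose above 3 counts in any library, and 12 of these were at 0 in all 24 libraries, where a count of 0 allows up to 3 counts (0.0549 to 0.0831 CPM, the count scaled to the library total). Together the 67 genes took 0.00615% to 0.0197% of a library. The 2 highest, Hist1h1c and Hist1h2bc, held 75.1% of the 143951 histone counts, the 4 highest held 88.9% and the 8 highest 98.5%. A gene entered the test where enough libraries passed a minimum of about 10 counts, and 15 did: 4 H1, 1 H2A, 5 H2B, 3 H3 and 2 H4 genes. Hist1h1b, Hist1h2bh, Hist1h3f and Hist1h3i reached that minimum in 2 or more libraries of Cre- mice alone, and Hist3h2ba in 2 or more of Cre+ mice alone, so these 5 passed through the genotype in which they were high. The other 52 genes reached at most 9 counts in a library. They included Hist1h2af and Hist1h2ac, the most abundant H2A genes after Hist3h2a, with at most 9 and 4 counts, as well as Hist1h3e with at most 9 and Hist1h4d with at most 8.

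**Figure D1:**
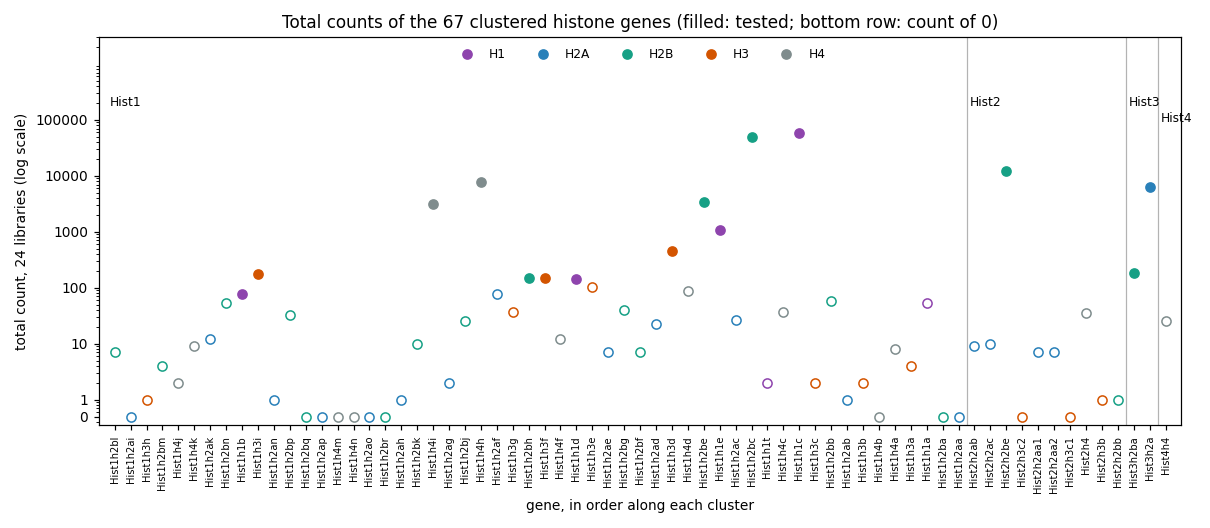
Total counts over the 24 libraries (log scale, with counts of 0 on the bottom row) for the 67 genes in their order along each cluster, coloured by histone class, with filled points for the 15 genes tested. Hist1h1c and Hist1h2bc stand above 10000 counts in the Hist1 cluster among neighbours that mostly stay under 100.

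The stem-loops of 8 genes that the results below turn on are shown because they mark where a replication-type histone message would end. They were read from GENCODE vM21 transcripts (GRCm38, the assembly that mm10 names) and are written 5′ to 3′ on the strand of the gene with the stem-loop in capitals and 5 bases on either side.
Hist1h1c (chr13:23739512-23739527, plus strand): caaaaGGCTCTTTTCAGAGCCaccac
Hist1h1e (chr13:23621782-23621797, minus strand): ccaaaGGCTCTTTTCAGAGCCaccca
Hist1h1d (chr13:23555787-23555802, plus strand): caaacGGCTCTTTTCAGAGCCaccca
Hist1h2be (chr13:23585531-23585546, minus strand): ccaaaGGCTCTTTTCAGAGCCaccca
Hist1h3d (chr13:23576244-23576259, plus strand): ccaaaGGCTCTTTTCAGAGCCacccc
Hist1h4h (chr13:23531458-23531473, plus strand): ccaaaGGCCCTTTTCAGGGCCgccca
Hist1h4i (chr13:22040966-22040981, minus strand): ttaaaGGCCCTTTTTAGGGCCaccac
Hist3h2a (chr11:58955172-58955187, plus strand): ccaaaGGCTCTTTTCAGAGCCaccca

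A stem-loop of this consensus was found in the transcripts of 45 of the 67 genes and in 87 of 58797 protein-coding transcripts of the annotation (0.148%). It came in 8 distinct sequences. The form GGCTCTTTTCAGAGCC was shared by 25 genes of the H1, H2A, H2B and H3 classes, and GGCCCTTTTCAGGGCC by 7 genes, all H4. The annotated transcript ran on for over 100 bases past the stem-loop in 23 genes, of which 10 were tested, and for at most 100 bases in 22 genes, of which 1 (Hist1h4h, 46 bases) was tested. Transcripts of the other 22 genes held no stem-loop in the annotation, and Hist1h1b, Hist1h3i, Hist1h2bc and Hist2h2be were the 4 tested among them. The longest run past the stem-loop among the 8 shown was 4884 bases for Hist1h1d, against 840 for Hist1h1c, 1153 for Hist1h1e, 1861 for Hist1h2be, 752 for Hist1h3d, 330 for Hist1h4i and 1643 for Hist3h2a.

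The 250 bases before an annotated start site are given for 4 genes that share or lack promoter motifs of the family, from RefSeq (GRCm38.p6), on the strand of the gene and with motif letters in capitals. The first 2 are linker genes called lower in EDL at both 2.5 and 8.5 d, and the last 2 a core gene that fell and one that did not pass the test. RefSeq gives Hist1h2be windows at 2 starts. The one printed lies 35154 bases from the start of the counted model, and the other, 30 bases from it, holds the CCAAT box and no octamer.
Hist1h1c (chr13:23738557-23738806, plus strand): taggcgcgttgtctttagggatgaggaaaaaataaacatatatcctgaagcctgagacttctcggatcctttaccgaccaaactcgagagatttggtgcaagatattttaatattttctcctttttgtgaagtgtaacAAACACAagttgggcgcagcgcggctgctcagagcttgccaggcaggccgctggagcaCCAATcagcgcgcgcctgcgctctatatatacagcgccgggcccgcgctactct
Hist1h1e (chr13:23622559-23622808, minus strand): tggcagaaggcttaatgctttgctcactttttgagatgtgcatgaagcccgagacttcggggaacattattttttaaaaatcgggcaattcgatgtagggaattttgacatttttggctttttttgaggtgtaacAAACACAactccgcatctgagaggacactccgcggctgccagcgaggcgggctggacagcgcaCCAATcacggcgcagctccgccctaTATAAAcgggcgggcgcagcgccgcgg
Hist1h2be (chr13:23585971-23586220, minus strand): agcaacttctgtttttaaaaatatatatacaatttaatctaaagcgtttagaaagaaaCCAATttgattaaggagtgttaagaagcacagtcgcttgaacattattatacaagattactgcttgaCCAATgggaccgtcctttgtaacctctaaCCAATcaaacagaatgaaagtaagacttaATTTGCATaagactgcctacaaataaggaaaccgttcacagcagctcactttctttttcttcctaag
Hist3h2a (chr11:58954435-58954684, plus strand): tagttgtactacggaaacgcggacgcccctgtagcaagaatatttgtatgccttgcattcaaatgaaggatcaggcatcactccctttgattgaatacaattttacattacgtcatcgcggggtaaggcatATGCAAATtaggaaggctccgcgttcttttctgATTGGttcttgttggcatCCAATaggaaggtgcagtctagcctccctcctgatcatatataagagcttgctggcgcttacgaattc

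The 5 motifs searched on both strands of the promoter windows, none of which contains another, were the TATA box TATAAA, the CCAAT box, the octamer ATTTGCAT, the H1 box AAACACA and the E-box CACGTG that Myc can bind. RefSeq gave windows for 62 of the 67 genes, 63 windows in all. The CCAAT box stood in 82.5% of them against 33.8% of all 32851 promoter windows of the same length, and in every window of the H1, H2A and H2B classes. The octamer stood in 22.2% against 1.6%, in H2A and H2B genes alone, and the TATA box in 46.0% against 12.4%. The H1 box stood in 14.3% against 6.25% and in 5 of 6 windows of H1 genes. In Hist1h1c and Hist1h1e it lay 112 and 115 bases before the start and the CCAAT box 54 and 52 bases before it. The E-box stood in 0 of the 63 windows against 6.02% of all windows. The window of Hist1h4h held none of the 5 motifs. These are matches of letters in 1 short window and not measured binding sites. Windows of some neighbouring H2A and H2B genes, such as Hist1h2bk and Hist1h2ah, overlap on opposite strands. The same site can thus count for both genes of such a pair.

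Many of these genes are near copies of each other, and the counts rest on reads that aligned to 1 place only. Of all stretches of 50 bases in a counted gene model (a length chosen here, since the read length is not given in the sources used here), under 50% occurred in that gene alone for 42 of the 67 genes, of which 5 were tested. The median share was 90.45% for H1 genes, 24.05% for H2A, 48.85% for H2B, 27.4% for H3 and 48.8% for H4. Hist1h3i (12.4%), Hist1h3d (34.5%), Hist1h4i (44.6%), Hist1h2bh (45.6%) and Hist1h4h (49.2%) were the 5 tested genes under 50%, and their counts are uncertain, since part of their reads may not have been placed. Hist1h1e (78.9%), Hist1h1c (80.9%), Hist1h2be (82.1%) and Hist3h2a (90.8%) were more distinct, and Hist1h1b and Hist2h2be were unique over their whole length. Low counts were not limited to shared sequence: of 6 genes at 100%, 4 were not tested, among them Hist1h1a and Hist1h1t. Hist2h2aa1 and Hist2h2aa2, which hold no unique stretch, had the same count in 24 of 24 libraries. The counted Hist1h2be model carried exons of Gm11398 and of the neighbouring Hist1h1e on the same strand, and the Hist3h2a model exons of Trim17 on the same strand, so their reads may be shared.

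**Figure D2:**
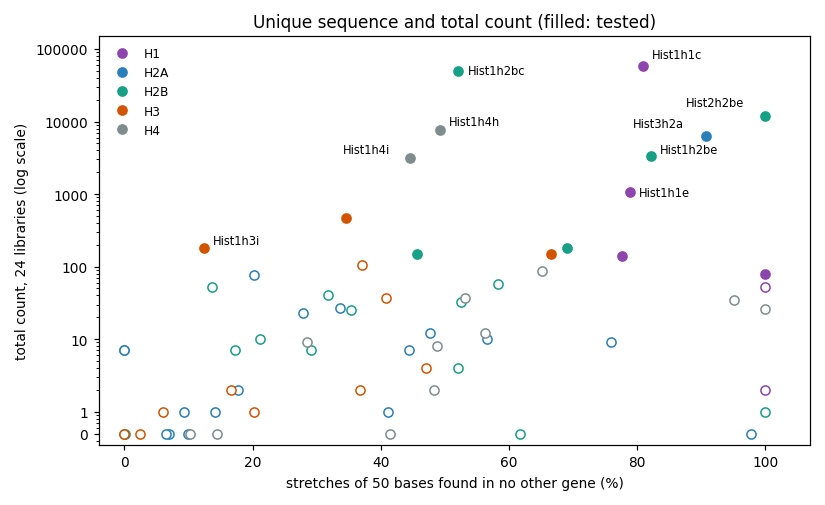
Share of stretches of 50 bases found in no other gene (x axis, percent) against total count over the 24 libraries (y axis, log scale) for the 67 genes, coloured by class, with filled points for genes tested. H2A and H3 genes crowd the left side at low counts, and 4 of 6 genes at 100% still have low counts.

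Among linker histones Hist1h1c (also called H1.2, chr13:23738807-23739531, plus strand) was by far the most abundant, with a mean of 70.5 FPKM over the 16 libraries of 2.5 and 8.5 d. FPKM here is the CPM divided by the counted length of the gene in kilobases, so it compares genes per counted length. For 10 of the genes tested the annotated transcript ran over 100 bases past the counted model. Reads from that part were not counted, so levels of different genes compare only roughly. Hist1h1e (H1.4, chr13:23621777-23622558, minus strand) followed at 1.356 FPKM, Hist1h1d (H1.3, chr13:23555032-23555807, plus strand) at 0.1822 and Hist1h1b (H1.5, chr13:21779832-21780625, minus strand) at 0.0862. Hist1h1a gave 0 to 8 counts a library and Hist1h1t, the testis linker histone, 2 counts in all, and neither was tested.

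In EDL all 4 linker genes tested were called lower with Cre at 2.5 d, and 2 of them, Hist1h1c and Hist1h1e, at 8.5 d. Of all genes tested 10.2% fell at 2.5 d and 6.5% at 8.5 d. Among the 4, Hist1h1b entered the test only through Cre- libraries, in which it was high. Without the genes that entered in this way 3 of 3 linker genes fell at 2.5 d. At 2.5 d Hist1h1c had 1080 and 1407 counts (31.27 and 43.97 FPKM) in the Cre+ libraries and 2302 and 2302 counts (72.19 and 69.89 FPKM) in the Cre- libraries. At 8.5 d it had 1005 and 1135 counts (26.24 and 33.13 FPKM) with Cre and 1240 and 2437 (47.59 and 81.44 FPKM) without. Cre+ lay below Cre- without overlap at both days, and the 2 Cre- libraries of 8.5 d lay far apart. The log2 fold change (Cre+ over Cre-, edgeR with TMM scaling) was -1.25 ± 0.26 (SE, n = 2 libraries per group) at 2.5 d with an adjusted p of 0.00307, a 2.385-fold lower level, and -1.30 ± 0.26 at 8.5 d with an adjusted p of 0.00492. Without EDL Cre+ 8.5 d replicate 1 the second of these became -1.09 with an adjusted p of 0.0771.

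Hist1h1e showed the larger fold. At 2.5 d EDL gave 9 and 16 counts (0.2415 and 0.4634 FPKM) with Cre and 43 and 57 counts (1.25 and 1.604 FPKM) without, and at 8.5 d 6 and 15 counts (0.1452 and 0.4058 FPKM) with Cre and 39 and 47 (1.387 and 1.456 FPKM) without. The groups did not overlap at either day. The log2 fold change was -2.35 ± 0.46 at 2.5 d (edgeR, adjusted p = 0.00234, 5.105-fold lower) and -2.54 ± 0.47 at 8.5 d (adjusted p = 0.00354, 5.824-fold lower). Without EDL Cre+ 8.5 d replicate 1 the 8.5 d value was -1.93 with an adjusted p of 0.0502, and without replicate 2 it was -3.49 with an adjusted p of 0.00305.

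The rarer linker genes passed the test in EDL at 2.5 d only at the margin. Hist1h1b had 2 and 2 counts with Cre against 10 and 11 without, at least 3.59-fold lower when 3 counts per library are taken as the limit of detection (edgeR, adjusted p = 0.0312). Hist1h1b entered the test only through these Cre- libraries, in which it was high, so its difference was in part set by the filter. Hist1h1d had 3 and 2 counts against 6 and 8, at least 2.39-fold lower (adjusted p = 0.0495). Both calls were lost when any 1 of the 4 libraries was left out (adjusted p from 0.0997 to 0.168 for Hist1h1b and from 0.0952 to 0.256 for Hist1h1d), and Hist1h1d was called in 1 of 6 other settings. At 8.5 d Hist1h1b had 2 and 0 counts against 2 and 4, and Hist1h1d 3 and 4 against 4 and 7, with adjusted p-values of 0.265 and 0.232.

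In SOL the same linker genes did not pass the test. At 2.5 d Hist1h1c had 2899 and 3263 counts (86.66 and 110.2 FPKM) with Cre and 3186 and 2472 (114.1 and 83.43 FPKM) without. The groups overlapped, and the log2 fold change was -0.16 ± 0.25 (edgeR, adjusted p = 0.827). Hist1h1e had 51 and 75 counts (1.413 and 2.347 FPKM) with Cre and 50 and 49 (1.66 and 1.533 FPKM) without, again overlapping, at a log2 fold change of 0.08 ± 0.40 (adjusted p = 0.956). At 8.5 d Hist1h1e had 48 and 56 counts (1.184 and 1.446 FPKM) against 62 and 100 counts (2.077 and 3.087 FPKM), which did not overlap, and its log2 fold change of -0.997 ± 0.40 missed the threshold (adjusted p = 0.633). Hist1h1c at 8.5 d was at 75.38 and 68.16 FPKM with Cre and 94.78 and 89.54 FPKM without, again not overlapping, at a log2 fold change of -0.40 ± 0.25 (adjusted p = 0.896).

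**Figure D3:**
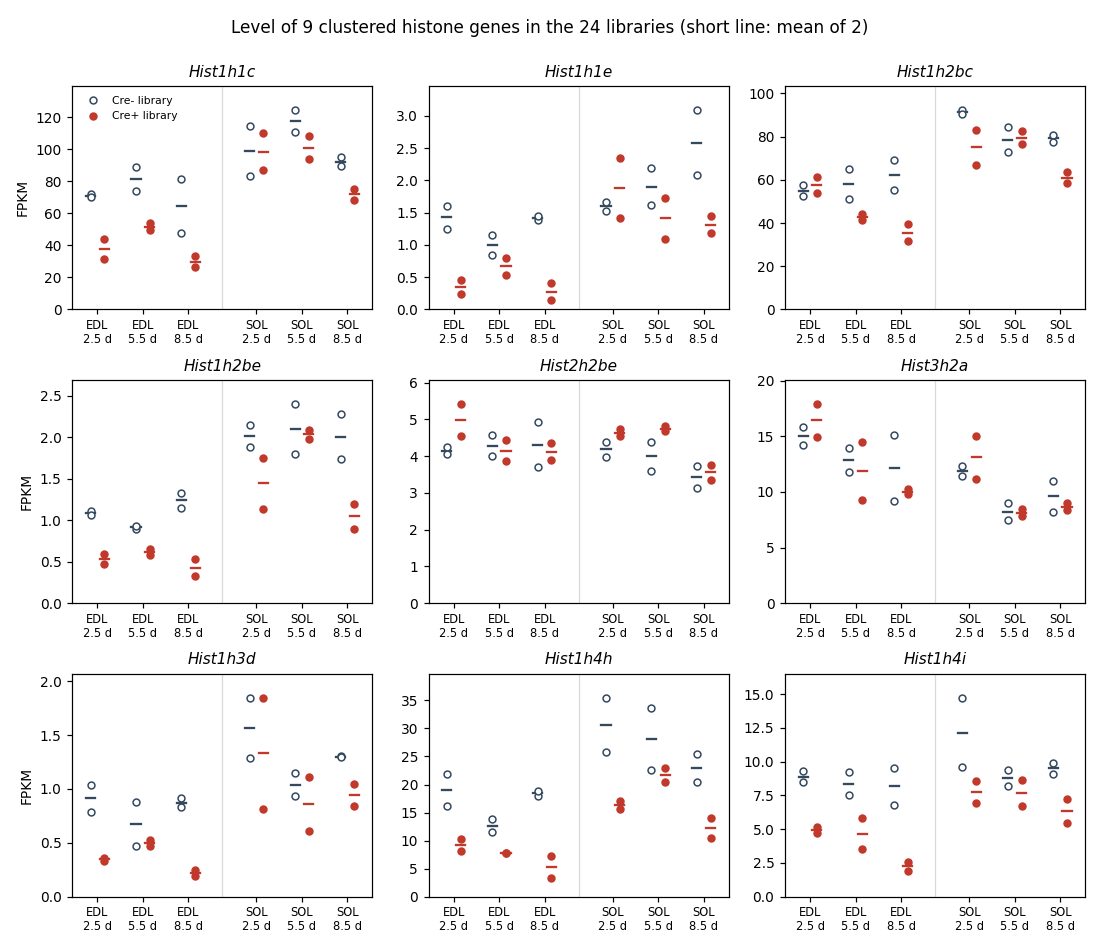
FPKM (y axis, linear from 0) of 9 clustered histone genes in the 24 libraries, by muscle and day of Dox (x axis), with open points for Cre- libraries, filled points for Cre+ libraries and a short line at the mean of 2. In EDL the Cre+ points of Hist1h1c, Hist1h1e and Hist1h2be lie below the Cre- points at every day, while in SOL at 2.5 d those of Hist1h1c and Hist1h1e overlap.

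The difference between the muscles was tested directly as the EDL change minus the SOL change. At 2.5 d it was -2.43 ± 0.61 on the log2 scale for Hist1h1e (edgeR, adjusted p = 0.044), so its ratio of Cre+ to Cre- was 5.393-fold lower in EDL than in SOL. It was the 1 clustered histone gene of 15 tested to pass. Its difference between the muscles was known from these data beforehand, so the test is not independent support. Among all 15372 genes tested 4.25% passed in either direction and 0.891% in the negative one. The call held in all 7 other settings that tested this gene (-2.44 to -2.25, adjusted p 0.00936 to 0.0456) but in none of the 8 fits that left out 1 library, where the difference stayed between -2.91 and -2.02 and the adjusted p between 0.0543 and 0.169. Hist1h1c differed by -1.09 ± 0.36 with an adjusted p of 0.102. At 8.5 d 0 of 15 genes passed in edgeR and 0 genes in DESeq2, against 0.592% of all genes in edgeR. At an unadjusted p under 0.05 there were 8 in edgeR and 6 in DESeq2, against 1729 of all 15372 genes in edgeR. The Hist1h1e difference was then -1.55 ± 0.62 (adjusted p = 0.363).

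The only H2A gene tested was Hist3h2a (chr11:58954685-58955192, plus strand; mean 12.11 FPKM), which lies outside the Hist1 cluster. At 2.5 d it had 361 and 401 counts (14.94 and 17.92 FPKM) in EDL with Cre and 317 and 364 (14.21 and 15.8 FPKM) without, which overlapped. In EDL its log2 values were -0.20 ± 0.25 at 2.5 d and -0.47 ± 0.25 at 8.5 d, and the SOL values were -0.01 ± 0.25 and -0.19 ± 0.25, with adjusted p-values from 0.236 to 0.999. Scaling by library size alone turned the sign of Hist3h2a at 2.5 d to 0.13 in EDL and 0.14 in SOL, because that scaling moved the median of all genes from -0.0473 to 0.282 in EDL and from 0.0233 to 0.176 in SOL. FPKM carries the same shift, and at 8.5 d the EDL median of all genes moved from -0.0173 to 0.163.

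The H2B genes were unequal. Hist1h2bc (chr13:23684199-23692480, plus strand; mean 64.58 FPKM) was the most abundant core histone gene, and at 2.5 d in EDL it had 1865 and 1965 counts (53.85 and 61.24 FPKM) with Cre and 1673 and 1897 (52.32 and 57.43 FPKM) without. The groups overlapped, at a log2 fold change of -0.27 ± 0.16 (edgeR, adjusted p = 0.252; 0.07 by library size alone). At 8.5 d it had 1210 and 1361 counts (31.51 and 39.62 FPKM) with Cre and 1445 and 2071 (55.3 and 69.02 FPKM) without, which did not overlap, and it fell by 0.98 ± 0.17 on the log2 scale (adjusted p = 0.00205, 1.974-fold lower). The change at 8.5 d minus that at 2.5 d was -0.72 ± 0.23 with an adjusted p of 0.381, so a difference between the days was not shown. In SOL its log2 fold changes were -0.44 ± 0.16 and -0.41 ± 0.16 at 2.5 and 8.5 d (adjusted p = 0.267 and 0.63).

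Hist1h2be (chr13:23583670-23621124, minus strand, a spliced model; mean 1.224 FPKM) fell at both days in EDL. It had 57 and 65 counts (0.4762 and 0.5862 FPKM) with Cre and 122 and 121 (1.104 and 1.06 FPKM) without at 2.5 d, and 43 and 63 counts (0.324 and 0.5307 FPKM) with Cre and 104 and 138 (1.152 and 1.331 FPKM) without at 8.5 d. The groups did not overlap, and the log2 fold changes were -1.36 ± 0.30 (adjusted p = 0.00505) and -1.71 ± 0.30 (adjusted p = 0.00272), calls that held in all other settings and with each library left out. In SOL it had 132 and 180 counts against 208 and 193 at 2.5 d and 117 and 148 against 166 and 237 at 8.5 d, again without overlap, and its log2 fold changes of -0.63 ± 0.28 and -0.97 ± 0.29 missed the threshold (adjusted p = 0.36 and 0.293).

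Hist2h2be (chr3:96221072-96223738, plus strand; mean 4.173 FPKM) passed in no comparison. At 2.5 d it had 691 and 537 counts (5.422 and 4.548 FPKM) in EDL with Cre and 476 and 518 (4.045 and 4.262 FPKM) without, and at 8.5 d 549 and 551 counts against 473 and 410. In FPKM both Cre+ libraries lay above both Cre- libraries at 2.5 d, and the groups overlapped at 8.5 d. The log2 values for EDL were -0.06 ± 0.18 at 2.5 d and -0.24 ± 0.18 at 8.5 d, while the SOL values were -0.00 ± 0.18 and 0.01 ± 0.18, with adjusted p-values from 0.42 to 1.00, and by library size alone those of 2.5 d were 0.26 in EDL and 0.15 in SOL. The remaining H2B genes tested, Hist3h2ba (chr11:58948911-58949372; at most 21 counts) and Hist1h2bh (chr13:23542923-23543444; at most 12 counts), passed in no comparison, with log2 fold changes in EDL of 0.43 ± 0.63 and 1.31 ± 0.81 for Hist3h2ba and of -0.65 ± 0.54 and -1.46 ± 0.53 for Hist1h2bh.

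H3 messages were scarce, and 2 of the 3 tested were called lower in EDL. Of all genes tested 10.2% fell at 2.5 d and 6.5% at 8.5 d. Hist1h3i and Hist1h3f entered the test only through Cre- libraries, in which they were high. Without these the count was 1 of 1 at each day. Hist1h3d (chr13:23575763-23576266, plus strand; mean 0.9374 FPKM) had 8 and 8 counts with Cre against 23 and 18 without at 2.5 d, and 5 and 6 against 15 and 19 at 8.5 d. The groups did not overlap, and the log2 fold changes were -1.71 ± 0.46 (edgeR, adjusted p = 0.0147) and -2.15 ± 0.49 (adjusted p = 0.0106). The 2.5 d call was lost without either Cre+ library or without Cre- replicate 1 (adjusted p up to 0.0915), and the 8.5 d call without Cre+ replicate 1 (adjusted p = 0.122). In SOL Hist1h3d had 19 and 38 counts against 25 and 38 at 2.5 d and 22 and 26 against 25 and 27 at 8.5 d, with adjusted p-values of 0.716 and 0.958.

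Hist1h3i (chr13:21782915-21783397, minus strand; mean 0.3775 FPKM) had 5 and 3 counts in EDL with Cre against 12 and 9 without at 2.5 d, at a log2 fold change of -1.72 ± 0.55 (edgeR, adjusted p = 0.0328). This call was lost with any 1 library left out (adjusted p 0.0573 to 0.226) and held in 3 of 7 other settings. At 8.5 d it had 0 and 1 counts against 9 and 12, at least 4.5-fold lower at a limit of 3 counts per library (adjusted p = 0.00182), and this call held in the 5 other settings that tested it and with each library left out. Hist1h3f (chr13:23544052-23544954, plus strand) had 2 and 1 counts against 9 and 5 in EDL at 2.5 d and missed the threshold (adjusted p = 0.0598), but passed in the fit of all 24 libraries (adjusted p = 0.0311). Both Hist1h3i and Hist1h3f entered the test only through Cre- libraries, in which they were high. Their differences were thus in part set by the filter, also where a call held in other settings.

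Both H4 genes tested fell in EDL, where 10.2% of all genes tested fell at 2.5 d and 6.5% at 8.5 d. Hist1h4h (chr13:23531044-23531478, plus strand; mean 16.78 FPKM) had 169 and 198 counts (8.178 and 10.34 FPKM) with Cre and 419 and 320 (21.96 and 16.24 FPKM) without at 2.5 d. At 8.5 d it had 75 and 149 counts (3.273 and 7.269 FPKM) with Cre and 281 and 338 (18.02 and 18.88 FPKM) without. The groups did not overlap, and the log2 fold changes were -1.38 ± 0.33 (edgeR, adjusted p = 0.00825; 0.0639 without Cre- replicate 1) and -1.98 ± 0.34 (adjusted p = 0.00235). Without EDL Cre+ 8.5 d replicate 2 the second became -2.73, and without replicate 1 it was -1.47, both still called. In SOL Hist1h4h had 313 and 304 counts (15.64 and 17.15 FPKM) with Cre and 593 and 458 (35.51 and 25.83 FPKM) without at 2.5 d, with no overlap, at a log2 fold change of -1.06 ± 0.32 (adjusted p = 0.18). DESeq2 on the same libraries called this SOL value (-1.08, adjusted p = 0.0387). At 8.5 d the SOL log2 fold change was -0.94 ± 0.33 (adjusted p = 0.47).

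Hist1h4i (chr13:22040960-22041362, minus strand; mean 7.5 FPKM) had 90 and 92 counts (4.703 and 5.19 FPKM) with Cre and 164 and 155 (9.283 and 8.494 FPKM) without in EDL at 2.5 d, and 41 and 49 counts (1.932 and 2.582 FPKM) with Cre and 98 and 158 (6.789 and 9.531 FPKM) without at 8.5 d. The groups did not overlap. The log2 fold changes were -1.18 ± 0.29 (edgeR, adjusted p = 0.00893; 0.0552 without Cre+ replicate 2) and -2.03 ± 0.30 (adjusted p = 0.000952, 4.093-fold lower). In SOL it was at 8.579 and 6.947 FPKM against 14.74 and 9.564 at 2.5 d and at 5.429 and 7.243 FPKM against 9.918 and 9.079 at 8.5 d, without overlap, and its log2 fold changes of -0.80 ± 0.28 and -0.62 ± 0.28 missed the threshold (adjusted p = 0.24 and 0.745).

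In EDL at 2.5 d, then, 9 of the 15 clustered histone genes tested fell and 0 rose, where 24% of all genes tested passed in either direction and 10.2% fell. By class these were 4 of 4 H1 genes, 0 of 1 H2A, 1 of 5 H2B, 2 of 3 H3 and 2 of 2 H4 genes. At 8.5 d 8 of 15 fell and 0 rose, where 14.1% of all genes passed and 6.5% fell. These were 2 of 4 H1 genes, 0 of 1 H2A, 2 of 5 H2B, 2 of 3 H3 and 2 of 2 H4 genes. The median log2 fold change was -1.36 over the 15 genes and -0.0473 over all genes at 2.5 d, and -1.49 and -0.0173 at 8.5 d. With Hist1h1b, Hist1h1d and Hist1h3f (2.5 d) and Hist1h3i (8.5 d) set to their limit of detection it was -1.26 and -1.49 over the 15, and by library size alone -1.03 and -1.31. The 2 days had 7 called genes in common: Hist1h1c, Hist1h1e, Hist1h2be, Hist1h3d, Hist1h3i, Hist1h4h and Hist1h4i. With 1 library left out the count fell to between 4 and 6 at 2.5 d, and at 8.5 d it was 5 without Cre+ replicate 1 and 8 otherwise. These counts and medians cover only genes read well enough to be tested. The medians include the 4 genes that entered through Cre- libraries alone, in which they were high. Without the 4 that entered through Cre- libraries alone, a restriction chosen after the data were seen, 7 of 11 fell at each day, with 3 of 3 H1 and 1 of 1 H3 genes at 2.5 d and 2 of 3 and 1 of 1 at 8.5 d.

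**Figure D4:**
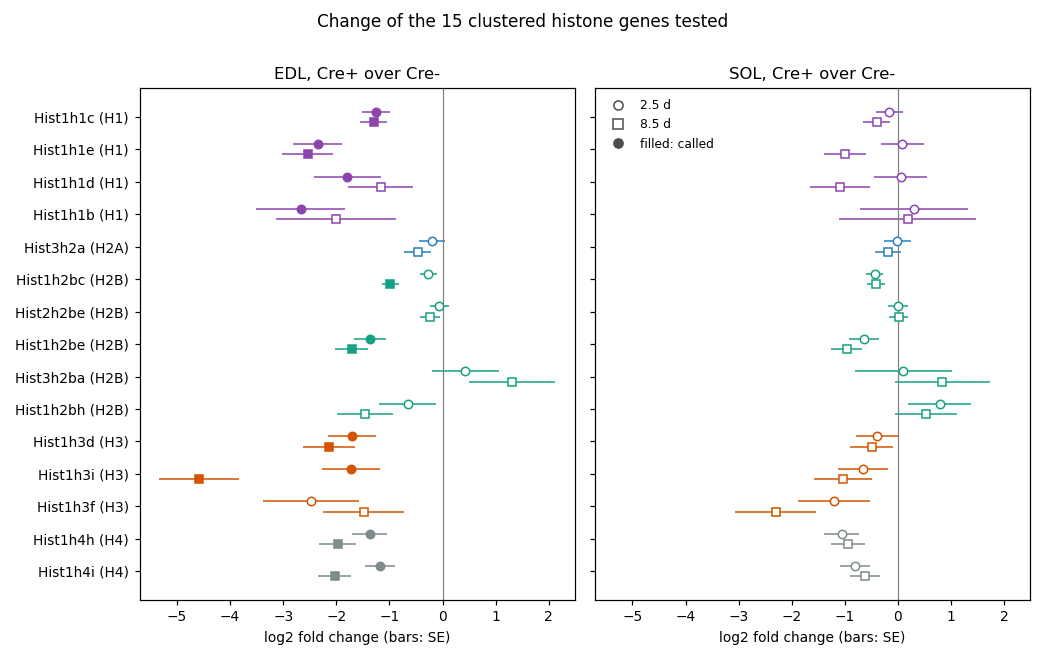
Log2 fold change of Cre+ over Cre- (x axis, bars show the SE) for the 15 genes tested in EDL (left) and SOL (right), with circles for 2.5 d, squares for 8.5 d and filled symbols for called changes. Every filled symbol lies left of 0 and in the EDL panel, with Hist1h3i at 8.5 d farthest to the left at -4.58, a fitted value against counts of 0 and 1.

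In SOL at 2.5 d edgeR called 0 of the 15 genes (4 at an unadjusted p under 0.05), against 0.384% of all genes. DESeq2 on the same libraries called 1. At 8.5 d edgeR and DESeq2 both called 0 (6 and 5 at an unadjusted p under 0.05), against 0.631% of all genes in edgeR. Of all 15372 genes 2053 at 2.5 d and 1015 at 8.5 d were under an unadjusted p of 0.05 in edgeR. The median over the 15 genes was -0.163 at 2.5 d and -0.492 at 8.5 d, where all genes had medians of 0.0233 and -0.00608. With both days pooled, all 4 Cre+ libraries lay below all 4 Cre- libraries of the muscle in TMM-scaled CPM for 10 of the 15 genes in EDL, where 13.3% of all genes tested did so. In SOL this held for 4 genes, Hist1h2be, Hist1h3f, Hist1h4h and Hist1h4i, and for 3.53% of all genes. Hist1h1b and Hist1h3i were among the 10 in EDL. These and Hist1h3f entered the test through Cre- libraries alone, so their order was in part set by the filter.

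The change at 8.5 d minus the change at 2.5 d passed for 0 of the 15 genes in either muscle in edgeR and for 0 genes of the family in DESeq2. In edgeR it passed for 0.0% of all genes in both muscles. At an unadjusted p under 0.05 there were 2 of the 15 in EDL (1 in DESeq2) and 0 in SOL (0 in DESeq2). Of all 15372 genes 1469 in EDL and 403 in SOL were under it in edgeR.

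Between the muscles of Cre- mice Hist1h2bc was lower in EDL than in SOL at 2.5 d, at 52.32 and 57.43 FPKM against 92.21 and 90.27 FPKM, by 0.63 ± 0.16 on the log2 scale (edgeR, log2 fold change -0.63, adjusted p = 0.0178). This call was lost without EDL Cre- replicate 1 or either SOL Cre- library (adjusted p 0.0586 to 0.143). It was 1 of 15 genes called, where 16% of all genes were called and 7.86% were lower in EDL. With same-numbered EDL and SOL libraries as a block 2 genes were called, Hist1h2be (log2 fold change -0.79, adjusted p = 0.0191) as well as Hist1h2bc. At 8.5 d 0 of 15 were called in edgeR and 0 in DESeq2, against 18.2% of all genes in edgeR. At an unadjusted p under 0.05 there were 2 in edgeR and 1 in DESeq2, against 5214 of all 15372 genes in edgeR.

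At 5.5 d Pou5f1 had 64 and 1686 counts in EDL with Cre and 4 and 22 in SOL with Cre. The 2 EDL Cre+ libraries thus differed, and edgeR called Pou5f1 (log2 fold change 9.59, adjusted p = 0.0225) and Sox2 (7.27, adjusted p = 0.046) in EDL, while in SOL all 4 factors had an adjusted p of 1.00. In EDL edgeR called 0 of the 15 genes (7 at an unadjusted p under 0.05), DESeq2 on the 24 libraries 0 (6 at an unadjusted p under 0.05) and DESeq2 on the 4 libraries 1, Hist1h1c, against 0.304% of all genes in edgeR. Hist1h1c had 1661 and 1761 counts (49.33 and 53.92 FPKM) with Cre and 2914 and 2772 (73.81 and 88.87 FPKM) without, which did not overlap, at a log2 fold change of -0.80 ± 0.23 (edgeR, adjusted p = 0.226). Hist1h1e had 29 and 19 counts against 36 and 39, at -0.72 ± 0.42 (adjusted p = 0.721), and 14 of the 15 log2 fold changes were negative with a median of -0.718. In SOL 0 of 15 were called by edgeR (2 at an unadjusted p under 0.05) and 0 by DESeq2, against 0.0% of all genes in edgeR. The median was -0.339. Of all 15478 genes 1307 in EDL and 597 in SOL were under an unadjusted p of 0.05 in edgeR.

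Summed over all members of a class, untested genes included, linker histone FPKM in EDL was 31.67 and 44.64 with Cre and 73.9 and 72.08 without at 2.5 d, and 26.53 and 33.7 against 49.23 and 83.3 at 8.5 d. The ratios of the means were 0.523 and 0.455 (0.416 and 0.396 with TMM scaling), and in SOL they were 1.00 and 0.772 (0.885 and 0.749). Most of this sum was Hist1h1c, and without it the EDL ratios of H1 fell to 0.275 and 0.247, while SOL gave 1.19 and 0.559. H4 sums gave ratios of 0.526 and 0.292 in EDL and 0.572 and 0.567 in SOL, and H3 sums 0.383 and 0.287 in EDL and 0.733 and 0.629 in SOL. The H2A and H2B sums, which rest on Hist3h2a and Hist1h2bc, gave 1.06 and 1.06 in EDL at 2.5 d, and 0.847 and 0.844 with TMM scaling. At 8.5 d the EDL ratios were 0.809 for H2A and 0.596 for H2B. These are sums over 2 libraries a group with no test.

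**Figure D5:**
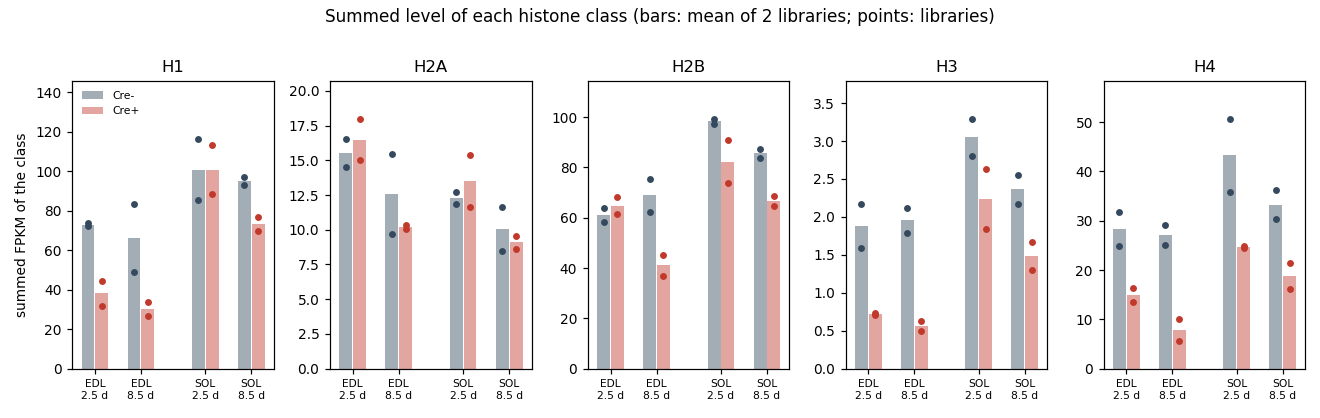
Summed FPKM of all genes of each histone class (y axis, linear from 0, 1 panel per class) by muscle and day, with bars at the mean of 2 libraries, points for the libraries, grey for Cre- and red for Cre+. H1, H3 and H4 sums are lower with Cre in EDL at both days, and the H4 sums in SOL as well, while H2A sums of the 2 genotypes overlap in SOL at both days.

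Genes around the clustered histones were counted from lists. Of all 15372 genes edgeR called 24% in EDL at 2.5 d (10.2% fell) and 14.1% at 8.5 d (6.5% fell). In SOL it called 0.384% and 0.631%. At an unadjusted p under 0.05 there were 5998 and 4588 of all genes in EDL and 2053 and 1015 in SOL (edgeR). Of 11 replication-independent histone variants, which are made outside S phase, 1 rose and 3 fell in EDL at 2.5 d (1 and 1 in DESeq2), with a median of -0.191 against -0.0473 for all genes. At 8.5 d edgeR and DESeq2 called 0 in EDL (1 at an unadjusted p under 0.05 in edgeR). In SOL edgeR called 0 at either day (2 at 2.5 d and 1 at 8.5 d at an unadjusted p under 0.05) and DESeq2 1 at 2.5 d. The centromeric H3 variant Cenpa fell by 1.25 ± 0.26 on the log2 scale in EDL at 2.5 d (edgeR, log2 fold change -1.25, adjusted p = 0.00375) and did not pass at 8.5 d (-0.58, adjusted p = 0.153). Over both days it lay at 1.5 to 1.91 FPKM in the 4 EDL Cre- libraries and at 0.744 to 1.32 in the 4 Cre+ libraries. H2afz, the H2A.Z gene, rose by 0.56 ± 0.13 at 2.5 d (adjusted p = 0.00785). Of 15 genes tested that process or degrade histone messages, 3 rose and 1 fell at 2.5 d and 1 rose and 1 fell at 8.5 d in EDL. In SOL edgeR and DESeq2 called 0 (0 at 2.5 d and 1 at 8.5 d at an unadjusted p under 0.05 in edgeR). Lsm10, a subunit of the U7 snRNP that cuts histone messages after the stem-loop, rose by 1.37 ± 0.19 at 2.5 d (adjusted p = 0.00028) and 1.18 ± 0.19 at 8.5 d (adjusted p = 0.00158), and more in EDL than in SOL at 2.5 d (1.22 ± 0.27, adjusted p = 0.0254). Its partner Lsm11 rose by 1.16 ± 0.24 at 2.5 d (adjusted p = 0.00342), and Slbp, which binds the stem-loop, fell by 0.51 ± 0.16 at 2.5 d and by 0.57 ± 0.16 at 8.5 d (log2 fold changes -0.51 and -0.57, adjusted p = 0.031 and 0.0292). DESeq2 called 0 of this list lower at 2.5 d.

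Of 18 histone chaperones 2 rose and 0 fell in EDL at 2.5 d in both edgeR and DESeq2, where edgeR called 24% of all genes. At 8.5 d edgeR called 0 in EDL (5 at an unadjusted p under 0.05) and DESeq2 2, and in SOL both called 0 (0 at an unadjusted p under 0.05 in edgeR). Nap1l1, a chaperone of H2A and H2B, rose by 1.57 ± 0.18 (edgeR, adjusted p = 0.000106) and Npm1, nucleophosmin, by 1.09 ± 0.18 (adjusted p = 0.000713). Of 21 S-phase genes 3 rose and 2 fell in EDL at 2.5 d, a share near the 24% of all genes called in either direction. At 8.5 d edgeR and DESeq2 called 0 in EDL (4 at an unadjusted p under 0.05 in edgeR), and both called 0 in SOL (1 at each day). The 2 with the lowest adjusted p were those that fell, Rrm1 and Tk1, enzymes of nucleotide supply. They fell by 0.85 ± 0.15 and 1.10 ± 0.21 (edgeR, log2 fold changes -0.85 and -1.10, adjusted p = 0.00132 and 0.00231). The 3 that rose also passed, at higher adjusted p-values, so the list had no common direction. Of 15 genes of G2 and mitosis 0 passed in edgeR in either muscle (1 at each day in EDL and 0 in SOL at an unadjusted p under 0.05), and DESeq2 called 1, higher in EDL at 2.5 d. Their median log2 fold changes in EDL stood at 0.402 and 0.504 for the days in turn, and in SOL at 0.089 and 0.645. Aurka and Bub1b, the 2 most abundant, averaged 1.78 and 0.452 FPKM in EDL Cre- libraries and 1.49 and 1.14 in EDL Cre+ libraries.

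Markers of fibre types and other cells were summed in the same libraries. Of all genes edgeR called 24% in EDL at 2.5 d (10.2% fell) and 14.1% at 8.5 d (6.5% fell), and 0.631% in SOL at 8.5 d. In EDL the 9 fast-fibre markers summed to 67300 to 90700 FPKM with Cre against 96000 to 112000 without, and 5 fell at 2.5 d and 2 at 8.5 d. The 7 satellite cell markers summed to 48.5 to 58.3 FPKM with Cre against 22.5 to 33.8 without (1 rose at each day), and 5 of 8 endothelial markers fell at 2.5 d (90 to 91.4 FPKM with Cre, 101 to 115 without). None of the macrophage (79.4 to 226 FPKM with Cre, 87.6 to 149 without), fibroblast (1290 to 2850, 1540 to 1780), erythroid (443 to 1530, 509 to 1680), neutrophil (0.87 to 3.06, 0.625 to 6.63), lymphocyte (0.847 to 2.55, 0.75 to 2.43) or slow-fibre markers (220.0 to 766, 160.0 to 1520) passed in EDL at either day in edgeR or DESeq2. Of these lists only the macrophage list at 2.5 d (1 gene) and the lymphocyte list (1 at 2.5 d and 2 at 8.5 d) held a gene at an unadjusted p under 0.05 in edgeR. The 10 liver markers summed to 49.4 to 129 FPKM in the SOL Cre- libraries of 8.5 d and to at most 20.6 in every other group of these days, and 9 fell in SOL and 5 in EDL at 8.5 d. The part of these cell markers in the histone values was not tested.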

How the data were processed

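Poly(A) RNA of whole EDL and SOL muscles was sequenced with a stranded, single-end protocol. Per the labels and the study's methods, STAR 2.5.3a placed the reads of the authors on mm10, and HOMER counted the uniquely placed ones over RefSeq exons. The authors deposited 1 table of raw counts with 1 column per library and the length of each gene. Quality control used FastQC 0.11.2 per the submitters' processing notes. Whether the counting used strand is not given in the sources used here.

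Here the counts were tested with edgeR 4.0.16 (R 4.3.3): quasi-likelihood F-test, TMM, filterByExpr with a minimum count of 10, Benjamini-Hochberg adjustment over all genes tested. The SE was computed as the absolute log2 fold change over the square root of the F statistic. It thus draws on the whole fit and not only on the libraries compared. The 16 libraries of 2.5 and 8.5 d were fitted in 8 groups (15372 genes), and the 5.5 d values came from a fit of all 24 libraries in 12 groups (15478 genes). Calls needed both an adjusted p under 0.05 and a log2 fold change beyond 0.5 in either direction. The alternatives were DESeq2 1.42.0 (same libraries, or the 4 compared; run without the low-count filter, so it covered more histone genes), DESeq2 size factors, library size alone, no filter, at least 10 counts in every library, all 24 libraries, replicate blocks and leaving out each library. The scripts were tested on simulated data with known changes. Within a genotype and day, EDL and SOL libraries of the same number deviated together (r of 0.173 to 0.445 in the 6 groups), so same numbers were taken as pairs, which the labels do not state. FPKM was computed here from the counts, the deposited lengths and the library totals. Stem-loops were found in GENCODE vM21 transcripts and promoters taken from RefSeq by accession (67 of 67 matched).

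The members and lists were chosen with earlier results of these data known. The genes named are all H1 genes, all genes called in any comparison, the 3 most abundant of each core class, the 2 called genes of each list with the lowest adjusted p (or the 2 most abundant), and the OSKM genes. Named beyond this rule, after their values were seen, were Hist3h2ba, Hist1h2bh, Hist1h3f, Slbp and genes given as near copies or overlaps.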

Additional observations from a re-analysis of the deposited data

Results flagged for a closer look

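Hist1h1e, a linker histone H1 gene, was flagged because its change with Cre differed between the muscles at 2.5 d by a direct test. Its difference between the muscles was known from these data beforehand, so the test is not independent support. Of all genes tested 4.25% passed this test in either direction. The EDL change minus the SOL change was -2.43 on the log2 scale (edgeR, adjusted p = 0.044), from log2 fold changes of -2.35 ± 0.46 in EDL and 0.08 ± 0.40 in SOL. All 8 libraries are behind this value, with 9 and 16 counts in EDL Cre+, 43 and 57 in EDL Cre-, 51 and 75 in SOL Cre+ and 50 and 49 in SOL Cre-. No other clustered histone gene passed this test in edgeR, while DESeq2 also called Hist1h1c (-1.05, adjusted p = 0.045). At an unadjusted p under 0.05 in edgeR there were 5 of the 15, against 3221 of all 15372 genes. The Hist1h1e call was lost in all 8 fits that left out 1 library (adjusted p 0.0543 to 0.169), and at 8.5 d the Hist1h1e difference did not pass (-1.55, adjusted p = 0.363).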

How the results depend on the processing

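Of 19 called changes of single histone genes, 127 of 140 values under other settings were called again, 13 were not and 0 reversed. With 1 library left out 49 of 80 were called, 31 were not and 0 reversed. In EDL at 2.5 d (9 genes called) DESeq2 on the 4 libraries called 5 and a filter of at least 10 counts in every library 4, since fewer genes were tested. Leaving out a library gave 4 to 6 (5 without Cre+ replicate 1, 4 without Cre+ replicate 2 and 4 without Cre- replicate 1). In EDL at 8.5 d (8) that filter gave 5, and leaving out a library 5 to 8 (5 without Cre+ replicate 1). In SOL at 2.5 d (0) DESeq2 called 1 with the 16 libraries and 1 with the 4 compared. For the EDL change minus the SOL change at 2.5 d (1) DESeq2 called 2, adding Hist1h1c, the filter of 10 counts, under which Hist1h1e was not tested, 0, and every fit without a library 0. For EDL over SOL in Cre- at 2.5 d (1) DESeq2 on either set, library size alone, the 24-library fit and the block by number each called 2, as did the replicate block by same-numbered EDL and SOL libraries, and leaving out a library gave 0 to 1 (0 without EDL Cre- replicate 1 and 0 without SOL Cre- replicate 1). At 8.5 d (0) it gave 0 to 1 (Hist1h1c without EDL Cre- replicate 2). In EDL at 5.5 d (0) DESeq2 on the 4 libraries called 1. The cause of the other moves was not tested. A class sum was lower with Cre in 16 of 20 comparisons, in 20 with TMM scaling and in 17 without the most abundant gene. These counts take any ratio under 1, whatever its size, and no test was run. With TMM scaling the ratios ran from 0.2508 (H3 in EDL at 8.5 d) to 0.9755 (H2A in SOL at 2.5 d).

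Cre+ and Cre- libraries of the same number did not deviate together (r of -0.169 to 0.0578), so they share only a number. A replicate block by number called 9 genes in EDL at 2.5 d and 8 at 8.5 d, and the EDL and SOL pairing changed no other count of calls. Depth limits the rare genes: 52 of 67 could not be tested, and Hist1h1b, Hist1h1d, Hist1h3f and Hist1h3i rest on at most 15 counts a library.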
